A study of Mus musculus with 12 samples.

Results

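Txnip, the 4 arrestin-domain genes Arrdc1 to Arrdc4 and the transcription factor gene Mlxip were followed in fibroblasts cultured from mouse embryos (MEFs), with and without the ubiquitin ligase CHIP, which is encoded by Stub1. These 6 genes were found by name among the 54532 genes of the table. All 6 were among the 13023 genes that passed a filter of at least 1 FPKM (fragments scaled to gene length and to library size) in at least 3 libraries, but Arrdc4 passed it through its CHIP-KO libraries alone. The groups were CHIP-KO cells held for 1 hour at 43 °C, unheated CHIP-KO cells, wild-type (WT) cells heated in the same way and unheated WT cells, with 3 libraries each and 12 in all. The labels name no other allele or agent, and they say neither how the knockout was made nor whether the 3 libraries of a group are separate cultures. The p values below therefore measure only the spread between these libraries, which may be technical. Likewise, the loss of CHIP and any other difference between the CHIP-KO and WT cultures cannot be told apart.

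Alpha-arrestins are adaptor proteins that share the arrestin fold and bring NEDD4-type ubiquitin ligases to membrane proteins, which are then taken up or sorted. TXNIP, the family's best known member, also binds thioredoxin and restrains glucose uptake by way of the glucose transporter GLUT1. Txnip and Arrdc4 are known targets of MondoA, the product of Mlxip, which pairs with MLX and binds carbohydrate response elements when glucose phosphates accumulate.

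Txnip was chosen by its FPKM values in the 4 groups, for an opposed heat response in the genotypes, so its levels are given as a description with no test. The other members were tested with limma on log2(FPKM + 1), with Benjamini-Hochberg adjustment over the 13023 genes, and called at an adjusted p under 0.05. Fold changes on that scale understate the change of genes with low values. Ratios of mean FPKM are given beside them.

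The promoters of Txnip and Arrdc4 are shown because MondoA acts at paired E-boxes. Both are RefSeq sequences on GRCm38.p6, from 250 bases before to 50 after the transcript start. Txnip's window is chr3:96557707-96558006 on the plus strand and that of Arrdc4 is chr7:68749189-68749488 on the minus strand. Capitals mark matches on either strand to the E-box CACGTG, to the CCAAT box (CCAAT or ATTGG) and to the paired E-box, 2 copies of CACGNG with 5 bases between them, whose spelling was written with the known Txnip element in view.
Txnip: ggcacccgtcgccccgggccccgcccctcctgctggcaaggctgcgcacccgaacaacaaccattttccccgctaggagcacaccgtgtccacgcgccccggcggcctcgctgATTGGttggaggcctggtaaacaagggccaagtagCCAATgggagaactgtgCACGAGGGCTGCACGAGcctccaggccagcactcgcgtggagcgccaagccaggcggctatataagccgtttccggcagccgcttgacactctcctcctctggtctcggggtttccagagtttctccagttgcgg
Arrdc4: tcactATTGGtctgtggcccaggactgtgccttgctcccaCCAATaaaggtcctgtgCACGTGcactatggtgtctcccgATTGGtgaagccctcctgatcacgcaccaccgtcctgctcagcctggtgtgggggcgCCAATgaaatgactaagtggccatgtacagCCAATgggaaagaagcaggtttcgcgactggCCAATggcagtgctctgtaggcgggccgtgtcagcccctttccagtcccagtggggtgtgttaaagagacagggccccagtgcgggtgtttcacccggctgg
The Txnip window holds the paired E-box, with its first base 85 bases upstream of the start, and 2 CCAAT boxes. The Arrdc4 window holds 1 CACGTG, whose first base lies 193 bases upstream, and 6 CCAAT boxes. Of 32851 mouse promoter windows of this length, 0.0487% (16 windows) held the paired E-box, 7.15% held CACGTG, 37.4% held at least 1 CCAAT box and 0.0791% held 6 or more. Neither E-box pattern was found in the windows of Arrdc1, Arrdc2, Arrdc3 (3 starts) or Mlxip. The bases just after the start matched a GENCODE M21 transcript of the same gene in every window except that of Arrdc1, whose start is thus less certain. The heat shock element, searched as GAANNTTC or TTCNNGAA, was in 15.1% of all windows and in none of the members' windows. These matches describe letters in a window and say nothing of binding.

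**Figure D1:**
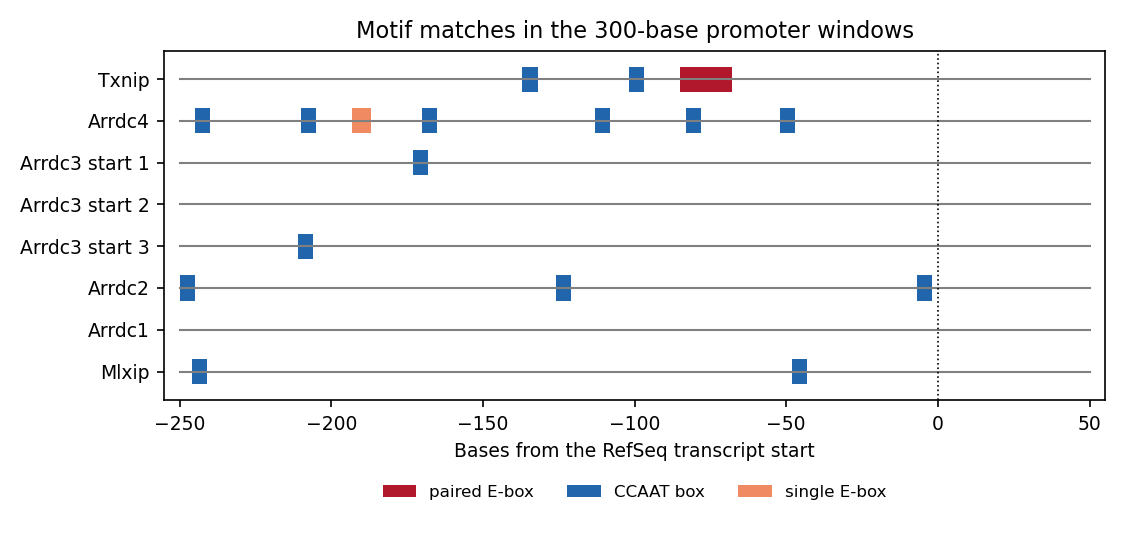
Positions of motif matches (coloured boxes) in the promoter windows of the 6 genes, with bases from the RefSeq transcript start on the horizontal axis, a row for each start and a dotted line at the start. The paired E-box is in the Txnip row, the single CACGTG and 6 CCAAT boxes are in the Arrdc4 row, and the Arrdc1 row has no match.

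Depth, as whole fragments derived from FPKM and gene length, was 19953642 to 26954112 per library in heated CHIP-KO cells, 22894580 to 26244726 in unheated CHIP-KO cells, 17103444 to 19294361 in heated WT cells and 15591924 to 20098901 in unheated WT cells. Stub1 checks the genotype labels: its level lay between 0.722 and 1.17 FPKM in the 6 CHIP-KO libraries and between 53.8 and 64.1 FPKM in the 6 WT libraries. Both WT libraries numbered 1 had the lowest limma library weights, 0.165 heated and 0.192 unheated, from an estimate that gave a convergence warning. Heated CHIP-KO replicate 1 (0.439) and heated WT replicate 2 (0.483) came next, and heated WT replicate 3 had the highest weight (5.04). The members' results that change without both WT libraries numbered 1, and the counts of called list genes that change most, are also given without these 2 libraries. Of 10 fibroblast markers, 8 passed the filter, and Fap and Lum stayed under 1 FPKM. Of the 8, Thy1 and Dcn passed through CHIP-KO libraries alone. Thy1 averaged 8.73 ± 0.542 FPKM in heated CHIP-KO, 8.28 ± 0.787 in unheated CHIP-KO, 0.0259 ± 0.0449 in heated WT and 0.00524 ± 0.00908 in unheated WT cells. Dcn averaged 1.35 ± 0.0510 FPKM in heated CHIP-KO, 1.31 ± 0.0924 in unheated CHIP-KO, 0.0881 ± 0.0151 in heated WT and 0.0153 ± 0.0179 in unheated WT cells. Pdgfra averaged 16.05 ± 0.212 FPKM in heated CHIP-KO, 19.1 ± 0.843 in unheated CHIP-KO, 3.19 ± 0.323 in heated WT and 1.001 ± 0.168 in unheated WT cells. The list's summed level, mostly Col1a1, Vim and in CHIP-KO cells Col1a2, ran from 3264 to 3462 FPKM in heated CHIP-KO, 2915 to 3079 in unheated CHIP-KO, 1845 to 2197 in heated WT and 1436 to 1858 in unheated WT libraries. None of 5 epithelial, 4 endothelial or 4 adipocyte markers passed the filter. Of 5 macrophage markers 1 passed (Cd68), with Ptprc, Csf1r and Adgre1 under 1 FPKM. The macrophage markers' summed level was 8.55 to 10.8 FPKM in heated CHIP-KO, 3.94 to 4.61 in unheated CHIP-KO, 13.4 to 15.8 in heated WT and 2.001 to 3.41 in unheated WT libraries. Of 4 mesothelial markers 1 passed (Msln), and their summed level was 31.1 to 38.1 FPKM in heated CHIP-KO, 27.7 to 31.9 in unheated CHIP-KO, 5.40 to 6.05 in heated WT and 29.8 to 30.5 in unheated WT libraries. Of 4 muscle markers 2 passed, with Myod1 and Myog under 1 FPKM and a summed level of 1.85 to 2.66 FPKM in heated CHIP-KO, 0.529 to 0.902 in unheated CHIP-KO, 3.28 to 4.45 in heated WT and 0.845 to 1.23 in unheated WT libraries. Of 4 neural markers 1 passed (Tubb3), with a summed level of 13.7 to 18.9 FPKM in heated CHIP-KO, 14.9 to 17.5 in unheated CHIP-KO, 6.61 to 7.67 in heated WT and 6.51 to 7.96 in unheated WT libraries. The part of these markers in the results below was not tested.

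Mlxip (ENSMUSG00000038342, GRCm38 chromosome 5, 123394798 to 123457932, plus strand), the regulator in the set and no arrestin itself, was transcribed in all 4 groups within a narrow range. It stood at 7.53, 8.04 and 8.18 FPKM in heated CHIP-KO, 9.43, 9.23 and 9.12 in unheated CHIP-KO, 8.08, 7.37 and 7.29 in heated WT and 6.68, 8.12 and 7.25 in unheated WT libraries. The 3 unheated CHIP-KO libraries were the highest of all 12, and the other groups overlapped. The unheated genotypes did not overlap for 61.2% of all tested genes. Without heat, Mlxip was 1.26-fold higher in CHIP-KO cells than in WT cells by mean FPKM (log2 change 0.30, SE 0.0666, limma adjusted p = 0.00322). With heat the log2 difference between genotypes was 0.06 (limma adjusted p = 0.539). Heat gave a log2 change of -0.20 in CHIP-KO cells (95% interval -0.35 to -0.06, limma adjusted p = 0.0541) and of 0.04 in WT cells (limma adjusted p = 0.612). The CHIP-KO change missed the threshold narrowly and passed it in several alternatives, at limma adjusted p = 0.0120 without both WT libraries numbered 1. The difference between the 2 heat changes was -0.25 (limma adjusted p = 0.0652), and it was called in 4 of 24 alternatives, at the lowest with adjusted p = 0.0192 without unheated WT replicate 2.

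Txnip (ENSMUSG00000038393, GRCm38 chromosome 3, 96557957 to 96561883, plus strand) had the highest mean of the members over the 12 libraries, 27.7 FPKM. It stood at 20.0, 30.4 and 23.7 FPKM in heated CHIP-KO, 40.8, 41.3 and 45.8 in unheated CHIP-KO, 27.8, 38.5 and 38.6 in heated WT and 8.62, 7.79 and 8.55 in unheated WT libraries. Unheated WT libraries lay far below all others, unheated CHIP-KO libraries lay above all others, and the heated groups overlapped in between. The order by mean was unheated CHIP-KO (42.6 ± 2.71 FPKM), heated WT (35.0 ± 6.21), heated CHIP-KO (24.7 ± 5.25) and unheated WT (8.32 ± 0.460; SD, n = 3 each). The heated CHIP-KO and heated WT libraries overlapped through heated WT replicate 1 alone, at 27.8 FPKM. In WT cells the heated mean was 4.20 times the unheated mean, and 175 of the 13023 genes had a larger log2 increase than the 1.93 of Txnip. In CHIP-KO cells the heated mean was 57.9% of the unheated mean (log2 change -0.78), and 99 genes had a larger decrease. The difference between the 2 heat changes was -2.72 on the log2 scale, and 10 of the 13023 genes had a more negative one. A call as higher with heat in WT cells together with a call as lower with heat in CHIP-KO cells was made for 218 genes, 1.67% of those tested. Since Txnip was chosen for its opposed heat response, its places among all genes describe it and lend the pattern no support. By genotype, the unheated CHIP-KO mean was 5.13 times the WT mean and the heated CHIP-KO mean was 70.6% of the WT mean. Without both WT libraries numbered 1 the difference between heat changes was -2.89 and the difference between the heated genotypes -0.64, against -0.49 with them. As these are bulk samples, fewer cells that express a gene and less of its RNA per cell cannot be told apart.

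**Figure D2:**
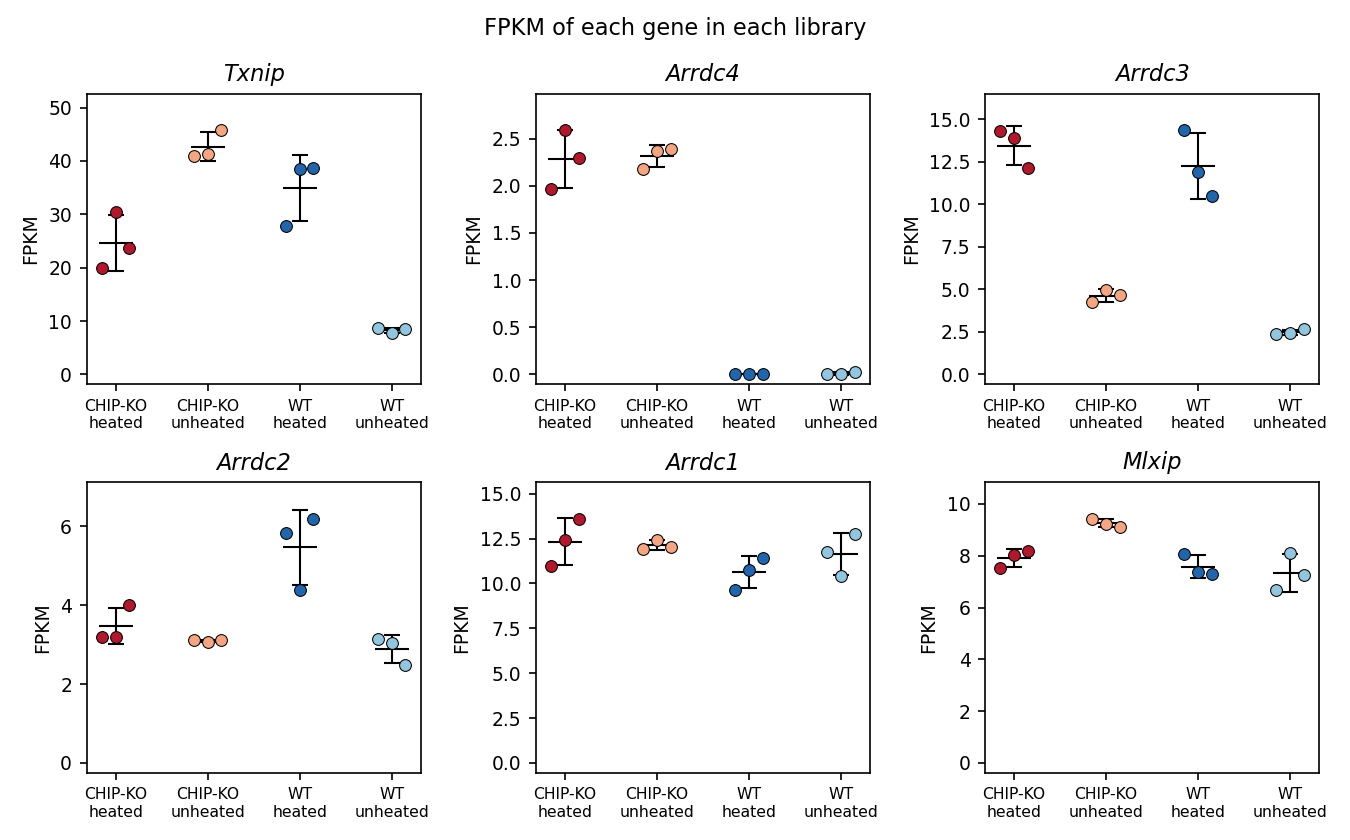
FPKM (vertical axes, a scale for each gene) of the 6 genes in each library, with points for libraries, a horizontal bar for the mean of 3 and error bars for 1 SD, in heated CHIP-KO, unheated CHIP-KO, heated WT and unheated WT cells. Txnip is lowest in unheated WT cells at 7.79 to 8.62 FPKM, Arrdc4 is at or near 0 in the 6 WT libraries, and Arrdc3 is high in both heated groups.

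Arrdc4 (ENSMUSG00000042659, GRCm38 chromosome 7, 68736995 to 68749241, minus strand) separated the genotypes and not the treatments. Its protein is the closest relative of TXNIP in sequence and likewise restrains glucose uptake. It stood at 1.97, 2.59 and 2.29 FPKM in heated CHIP-KO and 2.18, 2.37 and 2.39 FPKM in unheated CHIP-KO libraries. It was at 0 in the 3 heated WT libraries and at 0, 0 and 0.0233 FPKM in the unheated WT libraries. These levels correspond to 592, 702, 0 and 2 fragments over the 3 libraries of the heated CHIP-KO, unheated CHIP-KO, heated WT and unheated WT groups. No WT library came near any CHIP-KO library. Scaled to library size, the unheated CHIP-KO level was 264 times that of unheated WT, with a 95% exact interval of 72.8 to 2184 that covers counting error only. The heated CHIP-KO level was at least 166-fold higher than in heated WT, where a count of 0 allows up to 3 fragments over the group. Because Arrdc4 passed the filter only through the CHIP-KO group it had to differ by genotype, so no p for that difference is read. Within CHIP-KO cells the heated level was 0.974 times the unheated level by fragments (95% counting interval 0.872 to 1.09), and the log2 change was -0.02 (95% interval -0.21 to 0.18, limma adjusted p = 0.924). Arrdc4 and Txnip, both known MondoA targets, thus had different patterns: the heated WT libraries held 5944 fragments of Txnip in sum and 0 of Arrdc4.

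Arrdc3 (ENSMUSG00000074794, GRCm38 chromosome 13, 80883384 to 80896042, plus strand) encodes an alpha-arrestin known for binding integrin beta-4. It rose with heat in both genotypes. It stood at 14.3, 13.9 and 12.2 FPKM in heated CHIP-KO, 4.26, 4.98 and 4.67 in unheated CHIP-KO, 14.4, 11.9 and 10.5 in heated WT and 2.37, 2.44 and 2.65 in unheated WT libraries. Heated and unheated libraries did not overlap in either genotype, as for 48.7% of all tested genes in CHIP-KO and 60.4% in WT cells. The heated genotypes overlapped each other. The heated mean was 2.90 times the unheated mean in CHIP-KO cells (log2 change 1.36, limma adjusted p = 1.26e-05) and 4.93 times in WT cells (log2 change 1.92, SE 0.1004, limma adjusted p = 9.04e-08). In WT cells 179 of the 13023 genes had a larger increase, close to the place of Txnip. Without heat, Arrdc3 was 1.87-fold higher in CHIP-KO than in WT cells (log2 change 0.69, limma adjusted p = 0.000180). The heat change was smaller in CHIP-KO cells by 0.56 on the log2 scale (difference -0.56, SE 0.142, limma adjusted p = 0.0103), a call that was lost with a pseudocount of 5 (adjusted p = 0.0708). After heat the genotypes differed by 0.13 (95% interval -0.09 to 0.35, limma adjusted p = 0.320), but without heated WT replicate 1 that difference was called (0.24, limma adjusted p = 0.0398).

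Arrdc2 (ENSMUSG00000002910, GRCm38 chromosome 8, 70835129 to 70839720, minus strand) rose with heat in WT cells. It stood at 3.20, 3.20 and 4.01 FPKM in heated CHIP-KO, 3.11, 3.06 and 3.11 in unheated CHIP-KO, 5.82, 4.37 and 6.19 in heated WT and 3.14, 3.05 and 2.48 in unheated WT libraries. Each heated WT library lay above all 9 others. Heated and unheated libraries did not overlap for 60.4% of all tested genes in WT and 48.7% in CHIP-KO cells. The heated WT mean was 1.89 times the unheated WT mean (log2 change 0.73, SE 0.114, limma adjusted p = 0.000259). In CHIP-KO cells the log2 change with heat was 0.12 (95% interval -0.13 to 0.37, limma adjusted p = 0.498), although its heated libraries all lay above its unheated ones. The difference between the heat changes was -0.60 (SE 0.162, 95% interval -0.96 to -0.25, limma adjusted p = 0.0139). After heat the CHIP-KO level was 63.5% of the WT level (log2 change -0.53, limma adjusted p = 0.00341), and without heat the difference was 0.08 (95% interval -0.17 to 0.33, limma adjusted p = 0.616).

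Arrdc1 (ENSMUSG00000026972, GRCm38 chromosome 2, 24925352 to 24935252, minus strand), whose protein drives the budding of small vesicles from the plasma membrane, passed no threshold. It stood at 10.98, 12.4 and 13.6 FPKM in heated CHIP-KO, 11.9, 12.4 and 12.1 in unheated CHIP-KO, 9.66, 10.8 and 11.4 in heated WT and 11.7, 10.4 and 12.7 in unheated WT libraries. All groups overlapped in each comparison. The log2 changes were 0.02 with heat in CHIP-KO cells (95% interval -0.18 to 0.21), -0.12 with heat in WT cells (-0.31 to 0.07) and 0.06 for CHIP-KO against WT without heat (-0.13 to 0.25). The heated genotypes differed by 0.20 (limma adjusted p = 0.0963), which was called at adjusted p = 0.0352 without heated CHIP-KO replicate 1. Arrdc5, the remaining family member, had 2 fragments in all, both in heated CHIP-KO libraries, and was not tested.

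**Figure D3:**
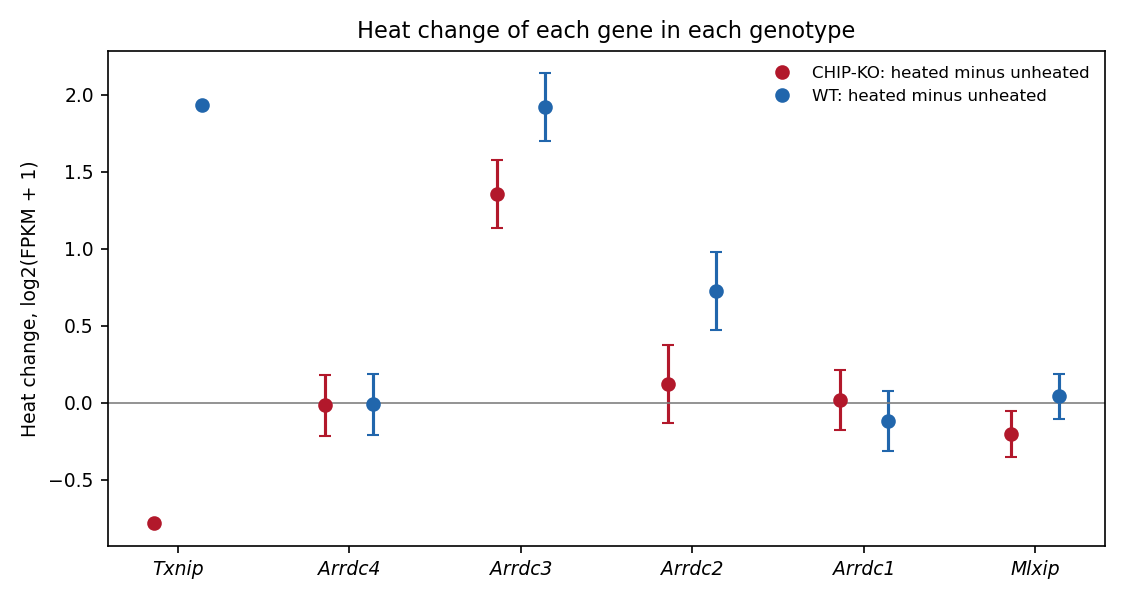
Log2 change with heat (vertical axis, log2(FPKM + 1), heated minus unheated) of the 6 genes in CHIP-KO cells (red, left) and WT cells (blue, right), with 95% intervals from limma and none for Txnip, which was not tested. Txnip lies at -0.78 in CHIP-KO and 1.93 in WT cells, Arrdc3 lies above 0 in both, and Arrdc2 lies clearly above 0 in WT cells.

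Counted over Arrdc1 to Arrdc4 and Mlxip, heat gave 1 call in CHIP-KO cells (Arrdc3, higher), where 20.0% of all tested genes were called and 8.65% were higher, and 2 in WT cells (Arrdc2 and Arrdc3, higher), where 58.7% were called and 28.1% were higher. The difference between the heat changes was called for 2 (Arrdc2 and Arrdc3, negative), against 35.2% of all genes called and 17.3% negative. CHIP-KO against WT gave 3 calls without heat (Arrdc3, Arrdc4 and Mlxip, higher), against 48.5% of all genes called and 23.9% higher. With heat it gave 2 (Arrdc4 higher, Arrdc2 lower), against 42.4% of all genes called, 23.3% higher and 19.1% lower. With 5 genes, these counts lie near the background shares, and Arrdc4 had to differ by genotype to pass the filter. The comparisons share groups of libraries, so their counts are not independent of each other.

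The thioredoxin system, to which TXNIP binds, was measured through 14 genes of thioredoxins, their reductases and peroxiredoxins, all of which passed the filter. With heat in CHIP-KO cells 1 of 14 was called, Nxn, higher by 0.25 (median of the list 0.07, of all genes 0.00 on the log2 scale). In WT cells 9 fell and 4 rose with heat (median -0.46, against -0.02 over all genes), where 30.5% of all genes fell and 28.1% rose. The largest falls were those of Prdx6 and Srxn1, both of -0.81, Prdx3 (-0.72) and Txnrd1 (-0.58). Prdx6 and Prdx3 encode peroxiredoxins, Srxn1 encodes sulfiredoxin and Txnrd1 the cytosolic thioredoxin reductase. Txn1, the cytosolic thioredoxin that TXNIP binds, averaged 242 ± 15.7 FPKM in heated CHIP-KO, 207 ± 3.83 in unheated CHIP-KO, 189 ± 20.9 in heated WT and 270.4 ± 20.6 in unheated WT cells (SD, n = 3 each). Its heat change was 0.22 in CHIP-KO cells (limma adjusted p = 0.101) and -0.51 in WT cells (limma adjusted p = 0.000398). The difference between heat changes was called in 7 of 14, all positive (background 17.9%), led by Prdx6 (1.00), Srxn1 (0.76), Txn1 (0.73) and Prdx3 (0.72), opposite in sign to that of Txnip. Without heat, 8 of 14 were lower and 2 higher in CHIP-KO than in WT cells, where 24.5% and 23.9% of all genes were. Without both WT libraries numbered 1 the counts were 7 positive and 2 negative for the difference, 4 higher and 0 lower with heat in CHIP-KO cells, and 4 higher and 8 lower with heat in WT cells. The median change of all genes with heat was 0.00 in CHIP-KO cells and -0.02 in WT cells in the fit reported. Scaling to an equal sum per library moved these medians to -0.29 and -0.21. Under it 0 of 14 were higher and 11 lower with heat in CHIP-KO cells, with a list median of -0.24, and 0 were higher and 10 lower in WT cells, with a list median of -0.69.

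**Figure D4:**
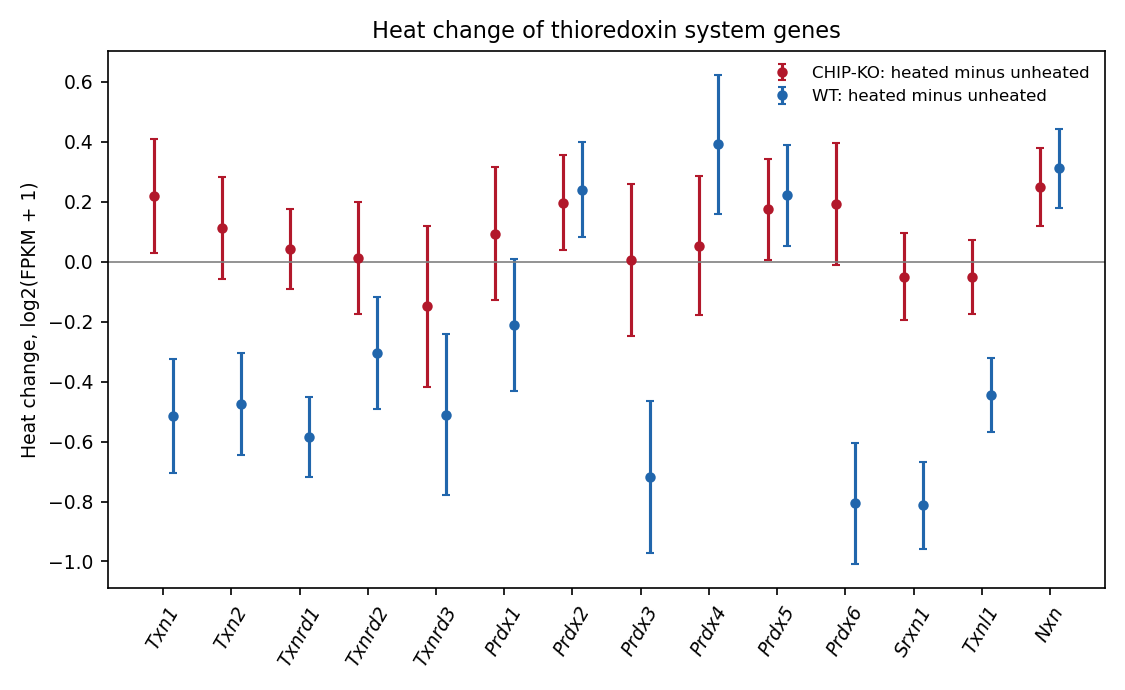
Log2 change with heat (vertical axis, log2(FPKM + 1), heated minus unheated) of 14 thioredoxin system genes in CHIP-KO cells (red, left) and WT cells (blue, right), with 95% intervals from limma. Prdx6, Srxn1 and Prdx3 lie at -0.81, -0.81 and -0.72 in WT cells and near 0 or above in CHIP-KO cells, while Prdx2, Prdx4, Prdx5 and Nxn lie above 0 in WT cells.

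Among 9 tested genes of the MLX and MAX network, transcription factors that share partners with MondoA, heat moved 2 higher and 1 lower in CHIP-KO cells, and 5 higher and 2 lower in WT cells. Of all tested genes, heat moved 8.65% higher and 11.4% lower in CHIP-KO cells and 28.1% higher and 30.5% lower in WT cells. The list's median log2 change was 0.03 in CHIP-KO and 0.19 in WT cells. Myc rose by 2.01 in CHIP-KO and by 2.01 in WT cells, Mxd1 by 0.65 and 1.27, and Mnt, a repressor, fell by 0.73 and 0.56. Mxi1, another MAX-binding repressor, rose by 0.53 in WT cells alone, at -0.12 in CHIP-KO cells (limma adjusted p = 0.239), and its heat changes differed by -0.64 (limma adjusted p = 0.000330). Mlx, the partner of MondoA, differed by -0.18 between unheated CHIP-KO and WT cells (limma adjusted p = 0.0277) and did not pass the threshold with heat in either genotype. Mlxipl, which encodes the related factor ChREBP, stayed under 1 FPKM in all groups.

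Of 4 other genes reported to be bound or raised by MondoA (Hk2, Pfkfb3, Ldha and Klf10), heat moved 1 higher and 0 lower in CHIP-KO cells (median 0.20) and 2 higher and 1 lower in WT cells (median 0.19), against 8.65% higher and 11.4% lower of all genes in CHIP-KO and 28.1% and 30.5% in WT cells. Without both WT libraries numbered 1 these were 2 and 0 in CHIP-KO cells and 2 and 2 in WT cells, with a WT median of 0.03. Klf10 rose with heat by 1.45 in CHIP-KO and 1.89 in WT cells. Ldha, lactate dehydrogenase A, fell by 0.69 in WT cells and stood at 0.15 in CHIP-KO cells (limma adjusted p = 0.164), a difference of 0.84 (limma adjusted p = 0.000100). Pfkfb3, a regulator of glycolysis, rose by 0.76 in WT cells. None of the 4 was called with heat in opposite directions in the genotypes, as Txnip's means were.

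Of 7 tested NEDD4-type ligases, the enzymes that alpha-arrestins recruit, heat moved 0 higher and 1 lower in CHIP-KO cells and 2 higher and 1 lower in WT cells, with medians of -0.02 and 0.10, against 8.65% higher and 11.4% lower of all genes in CHIP-KO and 28.1% and 30.5% in WT cells. Wwp1 fell by 0.27 in CHIP-KO and 0.53 in WT cells, and Wwp2 and Smurf2 rose by 0.42 and 0.50 in WT cells. Nedd4 itself was the most abundant by FPKM, at 140.5 ± 5.74 in heated CHIP-KO, 142 ± 1.86 in unheated CHIP-KO, 136.5 ± 2.30 in heated WT and 131 ± 4.78 in unheated WT cells, and passed no threshold. Of 7 tested partners of ARRDC1 in vesicle budding, heat moved 1 higher and 2 lower in CHIP-KO cells and 1 higher and 3 lower in WT cells, with medians of 0.07 and -0.12, against the same shares of all genes. Stam, a sorting adaptor, rose by 0.35 in CHIP-KO and 0.66 in WT cells.

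Of 5 tested glucose transporter and cargo genes, heat moved 1 higher and 2 lower in CHIP-KO cells and 3 higher and 2 lower in WT cells, with medians of -0.08 and 0.23, against 8.65% higher and 11.4% lower of all genes in CHIP-KO and 28.1% and 30.5% in WT cells. Slc2a1, which encodes GLUT1, averaged 18.7 ± 0.281 FPKM in heated CHIP-KO, 23.3 ± 0.320 in unheated CHIP-KO, 21.6 ± 0.927 in heated WT and 38.6 ± 0.840 in unheated WT cells. It fell with heat by 0.30 in CHIP-KO and 0.81 in WT cells, and without heat it was lower in CHIP-KO cells by 0.70. Notch1 rose with heat by 0.62 in CHIP-KO and 1.47 in WT cells, and its heat changes differed by -0.84 (limma adjusted p = 0.0243). Of 5 tested arrestin-fold relatives outside the family, 1 was called with heat in CHIP-KO cells (Arrb1, lower by 0.30) and 0 in WT cells, with medians of 0.01 and -0.04, against the same shares of all genes.

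The alpha-arrestin genes are also known as responders to glucocorticoids and FOXO factors, and 14 such genes were tested. With heat 1 rose and 3 fell in CHIP-KO cells, and 7 rose and 1 fell in WT cells, with medians of -0.09 and 0.40, against 8.65% higher and 11.4% lower of all genes in CHIP-KO and 28.1% and 30.5% in WT cells. Trp53inp1, a stress-induced gene, moved in opposite directions, by -0.56 in CHIP-KO cells and 1.29 in WT cells, and Sesn3, a sestrin, likewise by -0.42 and 0.45. Their heat changes differed by -1.84 and -0.87. Between genotypes, no count of higher genes is given for this list, since some of its genes passed the filter through CHIP-KO libraries. Tsc22d3, the glucocorticoid-induced leucine zipper gene, averaged 6.25 ± 0.519 FPKM in heated CHIP-KO, 4.98 ± 0.451 in unheated CHIP-KO, 1.17 ± 0.208 in heated WT and 0.467 ± 0.0727 in unheated WT cells, and 2 of the 6 WT libraries reached 1 FPKM. Pdk4, which encodes a brake on pyruvate entry into the mitochondrion, averaged 3.05 ± 0.493 FPKM in heated CHIP-KO, 2.57 ± 0.312 in unheated CHIP-KO, 0.0411 ± 0.0156 in heated WT and 0.00602 ± 0.0104 in unheated WT cells. Like Arrdc4, both passed the filter through CHIP-KO libraries, so their differences are given as levels. Ddit4 was lower in CHIP-KO than in WT cells, with log2 changes of -1.12 with heat and -0.85 without. Without heat no other gene of the list was called lower, where 24.5% of all tested genes were. After heat 5 of the 14 were called lower in CHIP-KO cells, against 19.1% of all tested genes. Some genes well above the filter in both genotypes had higher means in unheated CHIP-KO cells. Examples are Klf9 (9.80 FPKM, against 6.07 in unheated WT cells) and Irs2 (11.02 against 6.07). In heated CHIP-KO cells Klf9 averaged 7.14 FPKM, against 6.72 in heated WT cells, and Irs2 16.23 against 16.27.

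Of 9 tested genes of AMPK subunits and glucose use, heat moved 1 higher and 0 lower in CHIP-KO cells and 2 higher and 5 lower in WT cells, with medians of 0.01 and -0.15, against 8.65% higher and 11.4% lower of all genes in CHIP-KO and 28.1% and 30.5% in WT cells. G6pdx and Pgd, enzymes of the pentose phosphate pathway, fell by 0.75 and 0.69 in WT cells, and their heat changes differed by 0.62 and 0.70 between genotypes. Of the inflammasome genes linked to TXNIP (Nlrp3, Pycard, Casp1 and Il1b), none passed the filter.

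The directions of these lists with heat changed with scaling to an equal sum per library. With median-of-ratios scaling their counts in CHIP-KO cells were as reported. In WT cells the AMPK and glucose genes moved most, to 2 higher and 3 lower with that scaling and 1 and 3 with quantile normalization. With an equal sum per library and CHIP-KO cells, 1 rose and 5 fell in the MLX and MAX network, 0 rose and 4 fell among cargoes, 1 rose and 8 fell among the glucocorticoid and FOXO genes and 0 rose and 7 fell among AMPK and glucose genes, against the shift of all genes given above. Likewise 0 rose and 6 fell among NEDD4-type ligases, 0 and 6 among ARRDC1 partners, 0 and 4 among arrestin-fold relatives and 1 and 1 among the MondoA targets. In WT cells that scaling gave 3 higher and 2 lower in the MLX and MAX network, 2 and 2 among MondoA targets, 2 and 3 among NEDD4-type ligases, 1 and 5 among ARRDC1 partners and 1 and 2 among cargoes. It gave 0 and 4 among arrestin-fold relatives, 6 and 2 among glucocorticoid and FOXO genes and 1 and 7 among AMPK and glucose genes. Without both WT libraries numbered 1, heat in CHIP-KO cells called 3 higher and 5 lower among the glucocorticoid and FOXO genes, 1 and 2 among arrestin-fold relatives, 2 and 3 among ARRDC1 partners, 1 and 1 among NEDD4-type ligases, 2 and 2 in the MLX and MAX network and 1 and 1 among AMPK and glucose genes. Heat in WT cells then called 1 higher and 4 lower among AMPK and glucose genes, 2 and 2 among NEDD4-type ligases (median 0.04), 2 and 3 among ARRDC1 partners, 2 and 2 among cargoes (median 0.09) and 8 and 2 among glucocorticoid and FOXO genes. The lists were chosen with results of these data known, so their counts are descriptions.

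The genes whose centred log2 values lay nearest to those of Txnip over the 12 libraries, by root mean square distance, were Plpp3 (0.278), Myl9 (0.292), H2-Q4 (0.317), Nfatc4 (0.325), C1ra (0.325), Nlrc5 (0.337), Mme (0.339) and Fzd4 (0.343). The median distance over all tested genes was 0.911. H2-Q4 and C1ra belong to families with near-identical copies, so their counts are uncertain. These 8 shared with Txnip a low level in unheated WT cells. Plpp3, a lipid phosphatase gene, averaged 17.5 ± 0.968 FPKM in heated CHIP-KO, 21.1 ± 0.975 in unheated CHIP-KO, 20.98 ± 1.23 in heated WT and 5.03 ± 0.670 in unheated WT cells. None of the other members was near, since Arrdc2 ranked 2547 at 0.797, Mlxip 2732, Arrdc3 3315, Arrdc4 4604 and Arrdc1 5043. The likeness is a description over 12 libraries from 4 groups, and says nothing of shared function.

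**Figure D5:**
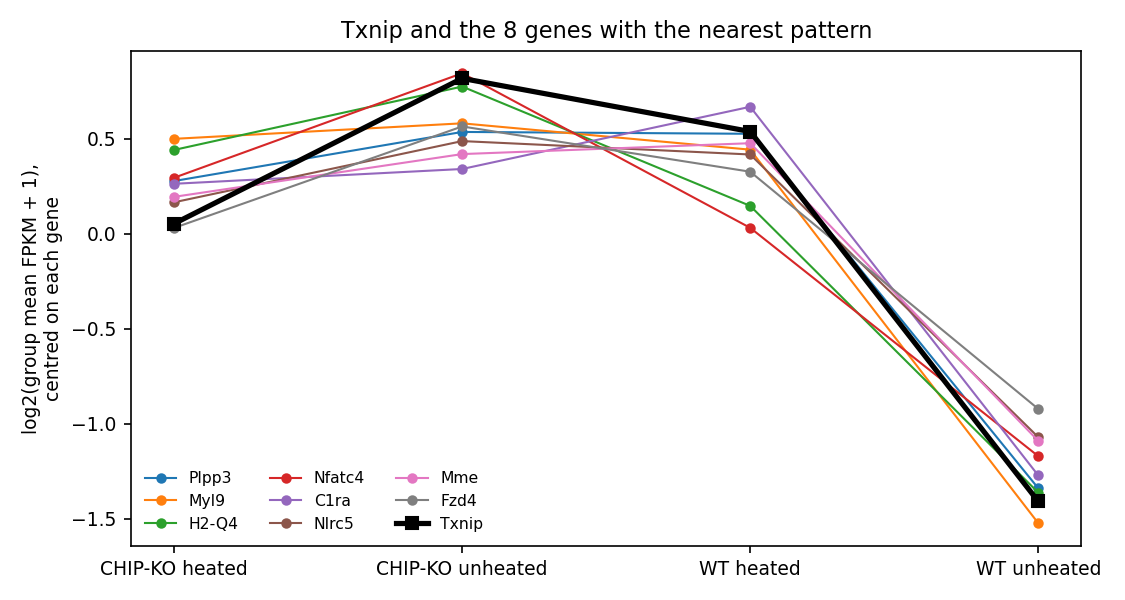
Log2 of the group mean FPKM plus 1, centred on each gene (vertical axis), for Txnip (black squares) and the 8 genes nearest to it, in heated CHIP-KO, unheated CHIP-KO, heated WT and unheated WT cells. All 9 are lowest in unheated WT cells, and in heated CHIP-KO cells Txnip lies below most of the others.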

How the data were processed

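Poly(A) RNA of 12 MEF libraries was sequenced, per the labels' protocols. The authors deposited 1 table of FPKM per gene and library, with gene length in bases beside it. Per the submitters' processing notes, HISAT2 aligned the reads. The aligner's version, the counter, its strand setting and the annotation were not given in the sources used here. Of 54532 gene identifiers, 53499 had identical positions in GENCODE M21, so positions are on GRCm38. FPKM times length gave whole fragments within a tolerance of 0.01. Groups came from the labels.

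Genes with at least 1 FPKM in at least 3 libraries (13023) were fitted as log2(FPKM + 1) with limma 3.58.1 in R 4.3.3, with group means over all 12 libraries and a variance trend, two-sided. Heated cells were compared with unheated ones within a genotype, CHIP-KO with WT cells within a treatment, and the difference between the heat changes was the interaction term. The fit was tested on simulated data. Members and lists were chosen with earlier results of these data known. Named were all members, Arrdc5, Stub1, up to 4 genes per list and comparison with the largest change, list genes that a sentence accounts for, and the 8 genes nearest to Txnip. No set test was run. A gene of the cargo list is not reported here and is not in its counts. Alternatives covered the pseudocount, the filter, scaling, groups alone, library weights, replicate block, voom on recovered fragments and libraries left out. Plots came from matplotlib 3.10.9 under Python 3.11.15. Intervals on fragments cover counting error only.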

Additional observations from a re-analysis of the deposited data

Results flagged for a closer look

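Of the 5 tested genes, 2 had heat changes that differed between the genotypes by limma's interaction term, where 35.2% of all tested genes did. Arrdc2 had a difference of -0.60 (CHIP-KO heat change minus WT heat change, log2 scale), from 0.12 in CHIP-KO and 0.73 in WT cells. Arrdc3 had a difference of -0.56, from 1.36 in CHIP-KO and 1.92 in WT cells. Txnip had a difference of -2.72, with -0.78 in CHIP-KO and 1.93 in WT cells. Every heated CHIP-KO library was below every unheated one, while every heated WT library was above every unheated one. Heated and unheated libraries did not overlap, in either direction, for 48.7% of tested genes in CHIP-KO and 60.4% in WT cells. Txnip was chosen for its opposed heat changes, so its difference was not tested. Both WT libraries numbered 1 had the lowest library weights, and without them the differences were -0.43 for Arrdc3 (limma adjusted p = 0.0207) and -2.89 for Txnip.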

How the results depend on the processing

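The limits are few libraries, 3 per group, and low levels: Arrdc4 rests on 2 fragments in WT cells, and Arrdc2 at a mean of 3.73 FPKM was not in the fit with a mean of at least 5 FPKM. Txnip kept the sign of all 5 changes in all alternatives run: with heat -1.11 to -0.57 in CHIP-KO and 1.57 to 2.12 in WT cells, by genotype 1.84 to 2.34 unheated and -0.64 to -0.35 heated, and -2.92 to -2.27 for the difference between heat changes. As Txnip was chosen for its pattern in these same libraries, its ranges describe the processing only and lend that pattern no support. The difference of Arrdc2 held at limma adjusted p = 0.0416 or less in all 23 alternatives that kept the gene, and that of Arrdc3 (-0.80 to -0.26) was lost with a pseudocount of 5. The cause of the changes below was not tested, except that a fit with a higher minimum tests fewer genes.

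Of the 5 tested members, heat in CHIP-KO cells called 1 in the fit reported. It called 2 with a pseudocount of 5, with only the groups compared, with library weights, without both WT libraries numbered 1 and with voom on recovered fragments, and 4 with an equal sum per library. Genes called there numbered 2607, against 8725 with an equal sum, 4043 with only the groups compared, 6201 with library weights, 4414 without both WT libraries numbered 1, 3924 with voom and 1578 with a mean of at least 5 FPKM. That minimum also gave 5087 genes for heat in WT cells, against 7640, with 1 member called, 0 members for CHIP-KO against WT after heat and 1 for the difference between heat changes, which a pseudocount of 5 gave as well. Library weights, whose estimate gave a convergence warning, called 8590 genes and 4 members after heat and 7403 genes for the difference, against 5525 and 4581 genes.

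The changes whose sign turned were not called in the fit reported. For the difference of Arrdc4 they were 0.076 with a pseudocount of 0.1, 0.0018 with median-of-ratios scaling, 0.13 with quantile normalization, 0.081 with library weights, 0.00015 without both WT libraries numbered 1 and 0.67 with voom. With an equal sum per library they were -0.30 for Arrdc1 (called there, limma adjusted p = 0.00702) and -0.14 for Arrdc2 with heat in CHIP-KO cells, -0.17 for Mlxip with heat in WT cells and -0.0090 for Mlxip after heat. That scaling, which shifts all genes, also called Mlxip (-0.51) and Arrdc4 (-0.25) with heat in CHIP-KO cells and Arrdc1 (-0.34) with heat in WT cells. With library weights they were 0.072 for Arrdc4 with heat in CHIP-KO cells, and 0.025 for Arrdc1 and -0.077 for Mlxip with heat in WT cells. The others were -0.082 for Arrdc1 with heat in CHIP-KO cells and -0.011 for Mlxip after heat with voom, -0.058 for Mlxip with heat in WT cells without both WT libraries numbered 1, and -0.0080 for Arrdc2 unheated with quantiles. Leaving out each library gave 1592 to 3462 genes and 1 to 2 members called with heat in CHIP-KO cells. The same gave -0.052 to 0.091 for Arrdc1 and -0.083 to 0.054 for Arrdc4 there, -0.017 to 0.11 for Mlxip with heat in WT cells, -0.0097 to 0.12 for Arrdc1 and -0.0018 to 0.12 for Arrdc2 unheated, and -0.072 to 0.065 for the difference of Arrdc4. It gave 2 to 3 members called for CHIP-KO against WT after heat and 2 to 3 for the difference between heat changes.

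An equal sum also moved the split of higher and lower calls, to 567 and 8158 with heat in CHIP-KO cells (1126 and 1481 as reported), 2388 and 6168 in WT cells (3664 and 3976), 2347 and 3044 for CHIP-KO against WT after heat (3033 and 2492), and 1765 and 2861 for the difference (2328 and 2253). Without the filter, heat in WT cells gave 5379 and 3873. Same-numbered libraries did not deviate together (correlations -0.12 to 0.00332 in WT and -0.0764 to -0.00621 in CHIP-KO cells). With 3 libraries per group, these values cannot tell whether libraries of the same number share a culture. The replicate block gave 2606, 7637, 6299, 5525 and 4583 genes called for heat in CHIP-KO, heat in WT, CHIP-KO against WT unheated and heated, and the difference, and the same number of members. The replicate block within genotype gave 1988, 7166 and 3886 genes called for the first 2 and the difference.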

Other observations

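Besides Txnip, 8 tested genes had the paired E-box in their promoter window. With heat, 0 of these 8 rose and 0 fell in CHIP-KO cells, where 7.29% and 12.4% of the 8985 tested genes with a window did, and 3 rose and 1 fell in WT cells, where 28.0% and 33.7% did. For the difference between heat changes, 1 was positive and 2 were negative, against 19.7% and 18.9%. With so few genes, their counts are given as values only.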
